A study of Homo sapiens with 6 samples.

Results

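The genes described here are 10 human genes that take up, store, release or sense iron or break down heme. They were found by exact match of their symbols in the authors' deposited table, which lists 26364 genes, and all 10 were present. The list was selected on the authors' fold changes and adjusted p-values for this same comparison, as far as these were in view when it was drawn up, so the values below describe these genes and carry no test over the list. The table compares REH, an established leukaemia line of human B-cell precursors, after 6 h either with 50 µM of the STAT3-directed compound S3I-201 or with DMSO, its solvent, as the control. Each group held 3 libraries, which the series' design places in independent experiments, and all of them come from this line alone. The table gives no value per library, only a mean normalized count over the 6 libraries and the fold change with its raw and adjusted p, so the spread within each group cannot be shown. It does not state which group is the reference. Positive fold changes were read as higher with S3I-201, and all directions here would turn if the reference were S3I-201.

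Cells take up most of their iron as transferrin bound to the transferrin receptor TFRC. In the endosome STEAP3 reduces the iron and SLC11A2 (DMT1) carries it to the cytosol, where it is used, stored in ferritin shells of FTH1 and FTL subunits, or exported by ferroportin, SLC40A1. NCOA4 delivers ferritin to the lysosome when iron is needed, and heme oxygenase HMOX1 frees iron from heme. The iron regulatory proteins ACO1 (IRP1) and IREB2 (IRP2) bind a hairpin in some messengers, the iron-responsive element. Bound before the coding part, as in ferritin, they block translation, and bound after it, as in TFRC, they protect the messenger from decay. RNA-seq reads the amount of messenger and not its translation.

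Because the genes that changed here include both kinds of messenger, the hairpins were located in GENCODE 29 transcripts (GRCh38, the same build as hg38). The search took 27 bases on the transcript strand: 5 bases, a C, 5 bases of upper stem, the 6-base loop CAGTGN, 5 bases that pair with the upper stem, G-T pairs allowed, and 5 more bases. With every upper stem position paired, the motif was found in 4 of the 10 genes, and in 1.41% of 19652 protein-coding genes of any transcript length. FTH1, FTL and SLC40A1 carried it once each in the 5′ UTR, at chr11:61967575-61967601 on the minus strand, chr19:48965336-48965362 on the plus strand and chr2:189580662-189580688 on the minus strand. TFRC carried it 4 times in the 3′ UTR on the minus strand, from chr3:196050980-196051006 to chr3:196050464-196050490. They are printed 5′ to 3′ as DNA letters, with the loop in capitals.
FTH1: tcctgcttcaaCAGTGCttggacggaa
FTL: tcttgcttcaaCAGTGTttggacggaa
SLC40A1: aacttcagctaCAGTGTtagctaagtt
TFRC, nearest to the coding part: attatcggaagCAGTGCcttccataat
TFRC, next: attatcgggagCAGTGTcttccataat
TFRC, next: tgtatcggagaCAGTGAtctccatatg
TFRC, farthest: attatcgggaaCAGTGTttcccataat
A 5′ UTR match was found in 0.142% of protein-coding genes. Only 6 genes, TFRC among them, had at least 2 matches in the 3′ UTR, and TFRC had the most. With up to 1 upper stem position left unpaired, fully paired matches included, the motif was found in 10.9% of genes. That search added a 3′ UTR match in SLC11A2, where such an element is known, and one each in ACO1 and IREB2. A match describes letters and is not evidence of binding. The pattern is fixed and misses elements of another shape, so the matches are not a full count of elements.
SLC11A2, chr12:50988270-50988296, minus strand: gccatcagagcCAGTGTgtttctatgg

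**Figure D1:**
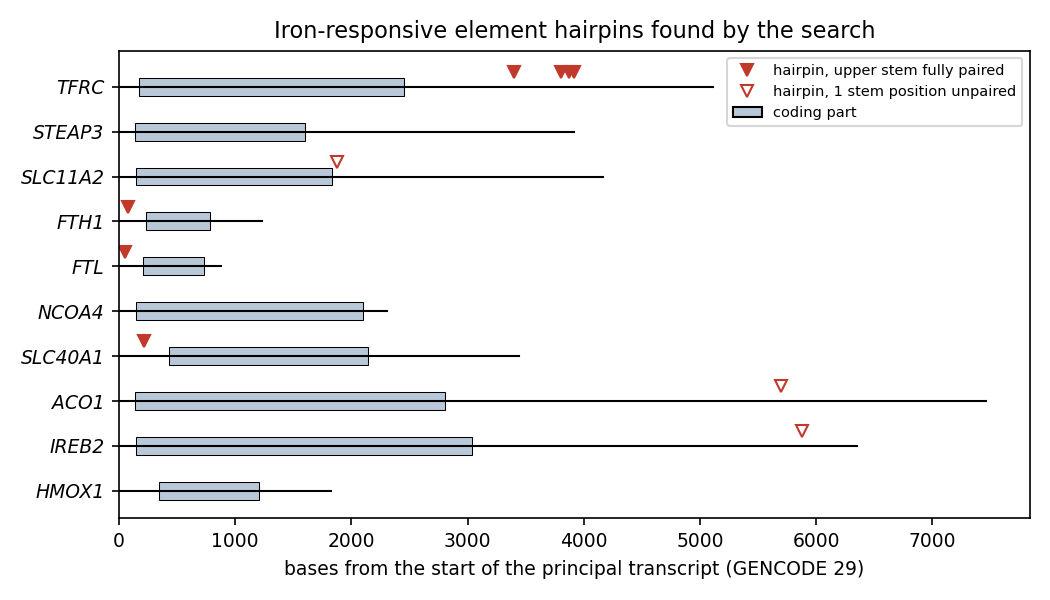
Map of the principal transcript of each of the 10 genes, with bases from the transcript start on the horizontal axis, the coding part as a box and hairpin matches as triangles (filled: upper stem fully paired; open: 1 position unpaired). The filled triangles of FTH1, FTL and SLC40A1 lie before the coding part and the 4 of TFRC after it.

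Reads counted in genes came to about 6600000 to 14500000 per library, estimated from the steps by which the means of rarely detected genes move. REH identity was visible in the marker lists: of 12 B-precursor markers 11 were detected and VPREB1 was listed at 0. By contrast, 7 of 8 erythroid markers, all globins among them, were listed at 0. So were the 3 T-cell markers in the table, the CD3 subunits CD3D, CD3E and CD3G. Of 6 macrophage and monocyte markers, CSF1R had the highest mean normalized count in the authors' deposited table, at 127. The erythroid marker above 0 was EPOR, at 94.2 in that table of the authors, and CD68 among the macrophage markers stood at 36.4. All 10 B-precursor markers with an adjusted p had negative fold changes, with a median of -0.20. Of these 10, 1 was called, CD24, lower at -0.61 on the log2 scale of the authors' deposited table (adjusted p = 0.00505). With the median of 20 abundance bins removed, the median of the 10 was -0.13. CD24 then stood at -0.54 and CD79A at 0.005. The part of this shift in the results below was not tested.

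Of the 10 genes, 8 had an adjusted p and 2, STEAP3 and SLC40A1, were listed at 0. At an adjusted p of 0.05 in the authors' DESeq2 comparison, 4 of the 8 passed, with 3 higher (HMOX1, FTH1 and FTL) and TFRC lower with S3I-201. Over all 11912 genes with an adjusted p, 5.90% passed, 4.45% higher and 1.45% lower. Since the list was chosen with these fold changes known, the share among its genes is not read against that background. The median log2 fold change was 0.06 over the 8 genes and -0.02 over all 11912. The fold changes look shrunken, since genes with 1 read have log2 values of only 0.0334 to 0.0422 in size, so the sizes given may be understated.

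**Figure D2:**
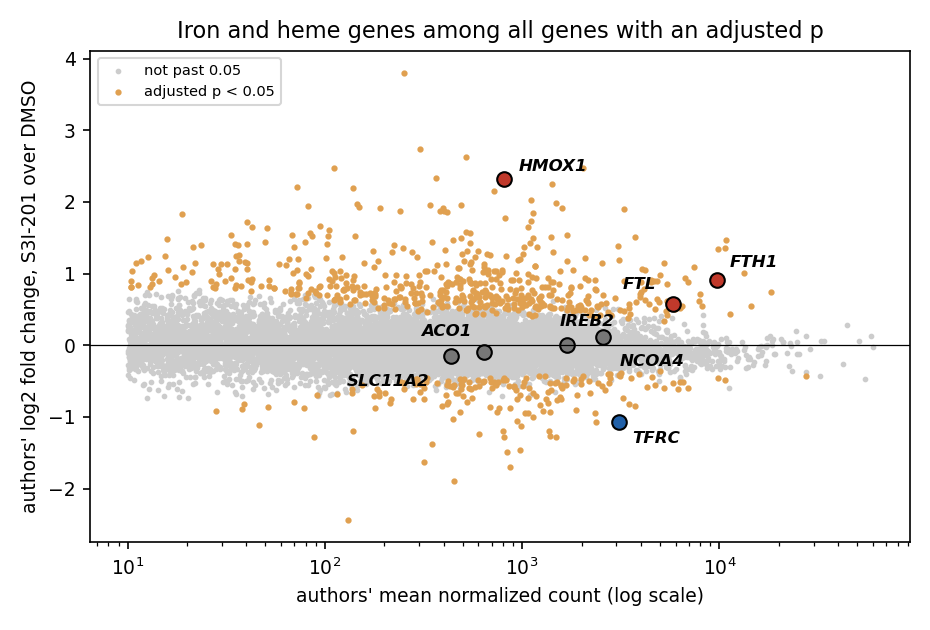
Each point is 1 of 11912 genes with an adjusted p, by the authors' mean normalized count (log scale) and log2 fold change of S3I-201 over DMSO. The 8 labelled genes are red where higher, blue where lower and grey where not past 0.05; HMOX1 stands at 2.32 and TFRC at -1.07, and 4 of the labelled genes lie within the grey band near 0.

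Iron uptake was represented by TFRC, SLC11A2 and STEAP3, and of these TFRC was lower. TFRC (chromosome 3, 196027183 to 196082189, minus strand) averaged 3107 normalized counts in the authors' deposited table, and its log2 fold change there was -1.07, or 2.09-fold lower with S3I-201. Its implied SE, worked back from the fold change and its p-value, was 0.18, which gives a 95% interval from -1.41 to -0.72 (adjusted p = 1.84e-07). The mean and the fold change together imply group levels of 4206 normalized counts with DMSO and 2009 with S3I-201. Counted from the lowest, TFRC ranked 19 among the 11912 fold changes.

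The other uptake genes gave no call. SLC11A2, the endosomal iron carrier (chromosome 12, 50979401 to 51028566, minus strand), averaged 434 normalized counts in the authors' deposited table, where its log2 fold change was -0.15 (adjusted p = 0.717). Its 95% interval ran from -0.45 to 0.14 and so includes 0 as well as a modest fall. The table is per gene and does not separate the SLC11A2 transcripts with the 3′ UTR element from those without it. STEAP3 (chromosome 2, 119223831 to 119265652, plus strand) was listed at 0. A listing at 0 means that 0 reads were counted over the 6 libraries. An expected total of up to 3 reads was taken as the limit that such a count leaves. That limit is a mean normalized count of at most 0.873. Its antisense neighbour STEAP3-AS1, whose exons overlap it, had 0.863 in the authors' deposited table.

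Of the storage genes, both ferritin subunits were higher and the ferritin receptor NCOA4 gave no call. FTH1, the heavy subunit with the ferroxidase site (chromosome 11, 61959718 to 61967660, minus strand), averaged 9765 normalized counts in the authors' deposited table, where its log2 fold change was 0.92 (95% interval 0.64 to 1.20, adjusted p = 2.14e-08). That is 1.89-fold higher, with implied group levels of 6764 normalized counts for DMSO and 12765 for S3I-201. FTL, the light subunit (chromosome 19, 48965301 to 48966878, plus strand), averaged 5790 there, and the authors' deposited table gives it a log2 fold change of 0.58 (95% interval 0.21 to 0.95, adjusted p = 0.0426). That is 1.49-fold higher, with implied levels of 4642 and 6938. The intervals of the subunits overlap, and the difference between them was not tested. The call of FTL was lost when all 16974 deposited p-values entered the adjustment (adjusted p = 0.0599).

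NCOA4, the receptor that carries ferritin to autophagy (chromosome 10, 46005088 to 46030714, minus strand), averaged 2579 normalized counts in the authors' deposited table, where its log2 fold change was 0.12 (95% interval -0.14 to 0.37, adjusted p = 0.757). The upper end of that interval lies below the lower end for FTH1, though the difference itself was not tested. Ferritin has many processed pseudogenes with near-identical sequence, and of these the table lists 3. FTH1P3 had a mean of 5.44 in the authors' deposited table and the other 2 were listed at 0, so reads shared with other copies cannot be assessed and ferritin values are uncertain to that extent. Exons of BEST1 overlap FTH1 on the opposite strand. The library kit does not mark strand, so reads there cannot be told apart. In the authors' deposited table BEST1 averaged 35.3 and its log2 fold change was 1.24, in the direction of FTH1, and what FTH1 reads contribute to it was not tested.

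**Figure D3:**
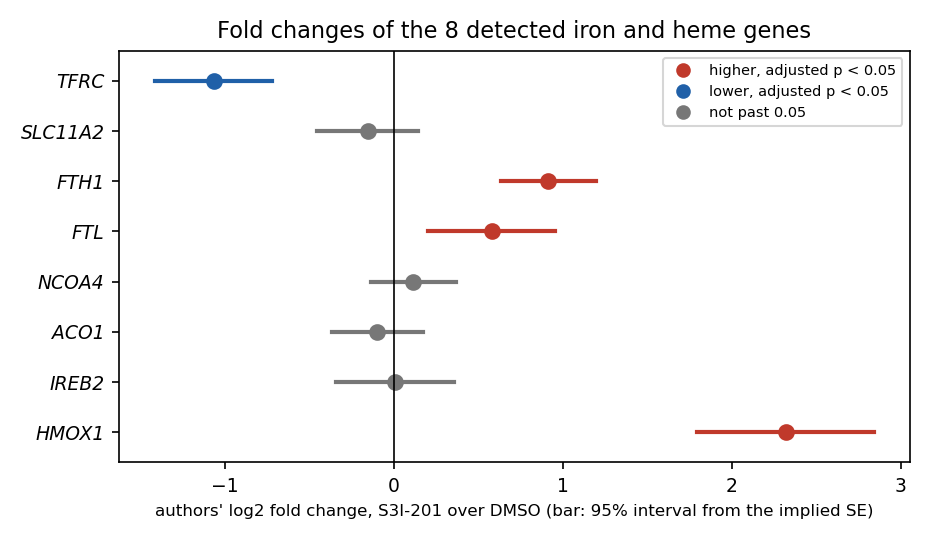
Authors' log2 fold change of S3I-201 over DMSO (horizontal axis) for the 8 genes with an adjusted p, with bars for the 95% interval from the implied SE. The bars of TFRC, FTH1, FTL and HMOX1 do not reach 0, and those of SLC11A2, NCOA4, ACO1 and IREB2 span it.

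The iron regulatory proteins ACO1 and IREB2 gave no call, and the exporter SLC40A1 had no test. SLC40A1, ferroportin, the only known iron exporter of mammalian cells (chromosome 2, 189560579 to 189583758, minus strand), was listed at 0. The same limit of 3 expected reads applies to SLC40A1. ACO1, the cytosolic aconitase that doubles as IRP1 (chromosome 9, 32384603 to 32454769, plus strand), averaged 640 normalized counts in the authors' deposited table, where its log2 fold change was -0.10 (95% interval -0.37 to 0.17, adjusted p = 0.828). IREB2, or IRP2, whose amount is set mainly by iron-dependent degradation of the protein (chromosome 15, 78437431 to 78501456, plus strand), averaged 1698 there, and the authors' deposited table gives it a log2 fold change of 0.01 (95% interval -0.34 to 0.36, adjusted p = 0.991). These intervals include 0 and also modest changes either way. Protein amount and RNA-binding activity are not measured by these data.

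HMOX1, the inducible heme oxygenase that opens heme to biliverdin, carbon monoxide and iron, had the largest fold change of the 10 genes. HMOX1 (chromosome 22, 35380361 to 35394214, plus strand) averaged 811 normalized counts and was 4.99-fold higher in the authors' deposited table (adjusted p = 1.51e-15). The implied levels were 271 normalized counts with DMSO and 1352 with S3I-201. The interval of the fold ran from 3.48 to 7.17, and HMOX1 ranked 7 from the highest among 11912 fold changes, against 190 for FTH1 and 522 for FTL. Its constitutive relative HMOX2 averaged 651 in the authors' deposited table and its log2 fold change of -0.34 did not pass (adjusted p = 0.365).

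Levels of different genes were compared per kilobase of the principal transcript. The order from the highest was FTH1 at 7945 mean normalized counts per kb, FTL at 6594, NCOA4 at 1118, TFRC at 608, HMOX1 at 445, IREB2 at 267, SLC11A2 at 104 and ACO1 at 85.7. No error over libraries can be given for neighbours in this order. FTH1 and FTL ranked 57 and 69 among 10755 tested genes with a principal transcript, so ferritin messengers were among the abundant ones of these cells. The ratio of FTH1 to FTL per kb was 1.04 at the levels implied for DMSO and 1.31 at those for S3I-201. FTH1 exceeded TFRC 6.69-fold per kb with DMSO and 26.4-fold with S3I-201, while FTL exceeded it 6.42-fold and 20.1-fold. HMOX1 lay below TFRC per kb with DMSO, at 149 against 823, and above it with S3I-201, at 742 against 393. IREB2 exceeded ACO1 3.01-fold and 3.23-fold.

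**Figure D4:**
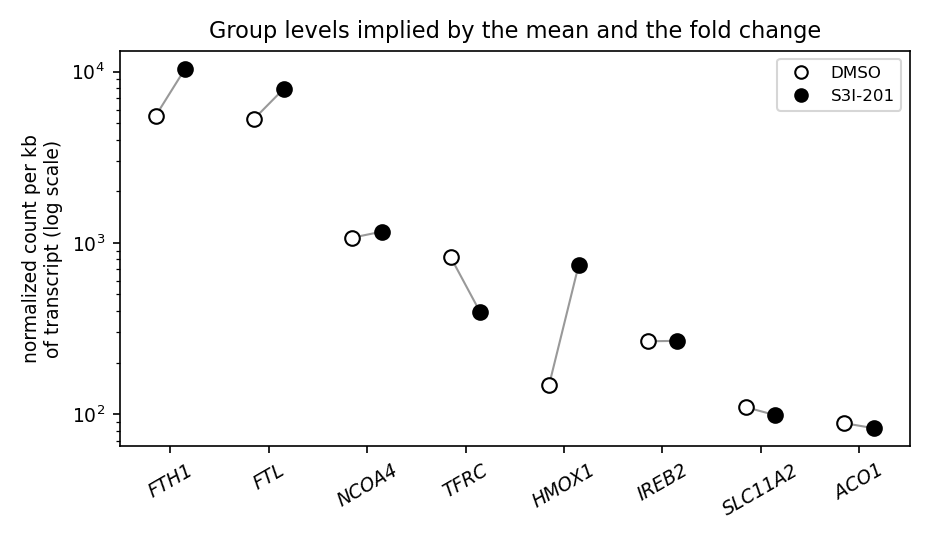
Normalized count per kb of transcript (log scale) implied for DMSO (open) and S3I-201 (filled) by the authors' mean and fold change, for the 8 detected genes from the highest mean level to the lowest. HMOX1 moves from 149 to 742 and TFRC from 823 to 393; the levels are derived from pooled values and have no error bars.

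Other genes of iron and heme handling were described from lists of textbook members. Together they held 101 genes, of which 77 had an adjusted p. Of these 7 were higher, 0 were lower and 70 did not pass in the authors' DESeq2 comparison, with a median log2 fold change of -0.05, against -0.02 over all genes tested. The called share of 9.09% stands beside 5.90% over all tested genes, or 4.45% for higher calls alone, and with counts of 1 to 3 per list nothing particular is read from any of the lists. The 7 were spread over 4 of the lists. The lists of iron import, export oxidases and IRP control had 0 calls, but only 6, 3 and 7 tested genes. That is too few for the 0 calls to be read as a result.

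Of 13 tested heme synthesis genes 1 was higher and 12 did not pass, with a median of -0.08. The higher gene was ABCB6, a porphyrin transporter, which the authors' deposited table puts at 0.91 on the log2 scale (adjusted p = 5.37e-05). ALAS1, the rate-limiting enzyme outside red cells, had 0.46 (adjusted p = 0.123) and FECH, which inserts the iron, 0.40 (adjusted p = 0.161), both from the authors' deposited table. Of 10 tested genes of heme breakdown and transport besides HMOX1, 1 was higher, with a median of 0.06. This was SLC48A1, a heme carrier of endosomes and lysosomes, which stands at 1.13 on the log2 scale in that deposited table of the authors (adjusted p = 2.96e-08). BACH1, the heme-sensing repressor of HMOX1, had 0.42 (adjusted p = 0.232) and LRP1, the receptor of hemopexin-bound heme, had 0.39 (adjusted p = 0.305) as log2 values of the authors' deposited table. The biliverdin reductases, which follow HMOX1 and are named after their values were seen, gave no call, with BLVRB at 0.36 and BLVRA at -0.05 in the authors' deposited table.

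Of 25 tested genes of mitochondrial iron and iron-sulfur clusters, 2 were higher and 23 missed the threshold, with a median of -0.11 and 16 negative values. FDXR, ferredoxin reductase, was 2.18-fold higher (adjusted p = 1.04e-05) and HSPA9, the mitochondrial HSP70 that also serves cluster transfer, 1.36-fold higher (adjusted p = 0.0279) in the authors' deposited table. The cysteine desulfurase NFS1 had -0.42 (adjusted p = 0.148) and the scaffold ISCU 0.33 (adjusted p = 0.171) as log2 values of the authors' deposited table. Genes of lipid peroxide control limit or promote iron-dependent cell death, and of the 9 tested 3 were higher and 6 missed the threshold, with a median of -0.10. The higher genes were SLC3A2 at 2.85-fold and SLC7A11 at 2.47-fold, which together form the cystine importer, and GCH1, the first enzyme of tetrahydrobiopterin synthesis, at 1.56-fold (adjusted p = 0.0256) in the authors' deposited table. LPCAT3, a phospholipid acyltransferase, had -0.39 (adjusted p = 0.0886), DHODH -0.38 (adjusted p = 0.315) and ACSL4 -0.22 (adjusted p = 0.566) as log2 values of the authors' deposited table.

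In the remaining lists 0 genes passed at an adjusted p of 0.05 in the authors' DESeq2 comparison. Of 6 tested genes of iron import and reduction, SLC39A14, a carrier of iron not bound to transferrin, came nearest, and the authors' deposited table gives it a log2 fold change of 0.41 (adjusted p = 0.0973). Among them SLC39A14 alone had an unadjusted p under 0.05, and removal of the abundance trend brought it past the threshold (adjusted p = 0.0490). The log2 values in the authors' deposited table were -0.22 for TFR2, the second transferrin receptor (adjusted p = 0.633), and -0.36 for HFE (adjusted p = 0.581). Of 7 tested genes of IRP control and iron chaperones, 0 had an unadjusted p under 0.05. FBXL5, the iron-sensing subunit that targets IREB2 for degradation, had -0.23 (adjusted p = 0.506), HERC2 -0.15 (adjusted p = 0.665) and PCBP4 0.14 (adjusted p = 0.774) as log2 values of the authors' deposited table. Of 3 tested genes of export oxidases and hepcidin control, 1 had an unadjusted p under 0.05, SMAD7 at 0.51 (adjusted p = 0.203), beside BMP6 at 0.39 (adjusted p = 0.542) and the erythroferrone gene FAM132B at 0.22 (adjusted p = 0.717), all from the authors' deposited table. Of 4 tested messengers with known or proposed iron-responsive elements besides the 10 genes, 0 had an unadjusted p under 0.05, and EPAS1 had 0.45 (adjusted p = 0.414), CDC14A -0.24 (adjusted p = 0.654) and PFN2 -0.13 (adjusted p = 0.783) in the authors' deposited table.

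**Figure D5:**
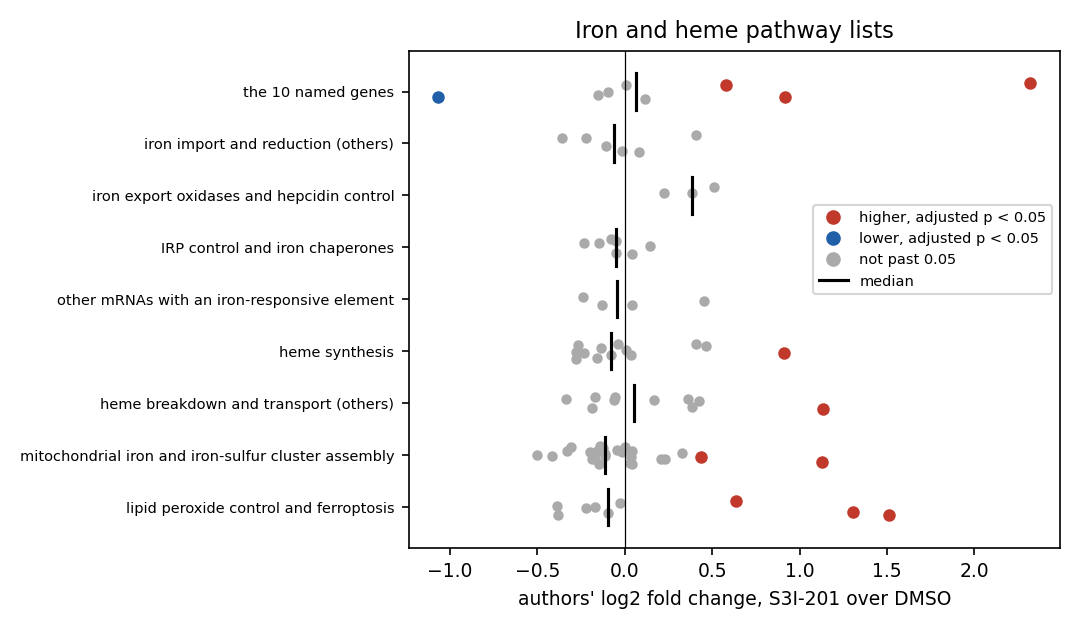
Authors' log2 fold change of S3I-201 over DMSO (horizontal axis) for each tested gene of the 10 named genes and of 8 pathway lists, with a bar at each median. The 7 red points outside the named genes lie in heme synthesis, heme breakdown and transport, mitochondrial iron, and lipid peroxide control.

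Genes with a hairpin match were called in both directions. Of 185 tested genes with a fully paired match anywhere, 11 were higher and 5 lower in the authors' DESeq2 comparison, or 8.65% against 5.90% of all tested genes, with a median log2 fold change of -0.03. Without FTH1, FTL and TFRC these were 9 higher and 4 lower of 182, or 7.14%. Of the 90 tested genes with a match in the 3′ UTR, TFRC included, 4 were higher and 4 lower, or 8.89%, with a median of 0.02. Of the 18 tested genes with a match in the 5′ UTR, 3 were higher and 1 lower, and without the ferritins 1 was higher and 1 lower of 16. Those were CSF1 at 1.32 and PTMA at -0.43 as log2 values of the authors' deposited table, named after their values were seen.

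RefSeq promoter windows (GRCh38.p14, 250 bases before to 50 after a start) were matched for 8 of the 10 genes, all except FTH1 and HMOX1. On either strand, the core of the antioxidant response element, TGACNNNGC, was found in 13.3% of 35116 windows and, of the 8 genes, in NCOA4. The composite element of C/EBP and ATF factors, TGATGNAA, was found in 3.62% of windows and in SLC11A2. The E-box CACGTG was found in 7.26% of windows and in 0 of the 8 genes. Of the 4 called genes among the 10, the windows thus cover TFRC and FTL only. Of the 7 called genes of the pathway lists, 5 had windows. Among these the antioxidant core was found in ABCB6 and SLC3A2, the composite element in SLC3A2, and the E-box in ABCB6 and HSPA9. Use of these sites was not tested. Elements farther from the start are not covered by these windows.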

How the data were processed

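RNA of 3 libraries per group was prepared with a column kit and the TruSeq RNA v2 method, per the labels' protocols. The submitters' processing notes name hg38, bcl2fastq 2.19, Trimmomatic, Bowtie2, Picard, featureCounts and DESeq2, without role or order; the gene annotation was not given in the sources used here. In the table the mean normalized count is a signal deposited by the authors, per the file headers, as are the log2 fold change, the p-value and the adjusted p. The adjusted p came within 0.675% of a Benjamini-Hochberg adjustment over the 11912 genes that have it, all with a mean of at least 10.0. Since these values are not counts of single libraries, no count model was fitted and the authors' p-values were used as deposited.

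Computed here, with Python 3.11.15, pandas 2.3.3 and scipy 1.17.1, were implied SEs and intervals, implied group levels (the 2 values that give the mean and the ratio with 3 libraries each), levels per kb, list counts, hairpin and motif matches. The 6 single-read steps explained 100% of 2067 means under 0.6 within 1e-07 and gave size factors of 0.573 to 1.27. Library totals of reads counted in genes are these factors times the sum of all mean normalized counts. The adjustment and trend removal were tested on simulated data.

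The 10 genes and all lists were chosen with earlier results of these data known. Named are the 10 genes and, per list, called genes and up to 3 more with the smallest adjusted p; others are marked, and 2 genes within this rule are not reported here. Alternatives were thresholds of 0.01 and 0.1, a minimum log2 size of 1, adjustment over all p-values, and removal of the median in 20 abundance bins.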

Additional observations from a re-analysis of the deposited data

How the results depend on the processing

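At thresholds of 0.01 and 0.1, and with adjustment over all 16974 p-values or the abundance trend removed, the number of called genes among the 10 stayed within 1.5 times the 4 reported, while a minimum log2 size of 1 left 2, HMOX1 and TFRC. FTL kept its log2 fold change of 0.58 and lost its call with adjustment over all p-values (adjusted p = 0.0599). FTL also lost its call at the threshold of 0.01, since its adjusted p in the authors' DESeq2 comparison was 0.0426. Iron import and reduction had 1 called gene in place of 0 at a threshold of 0.1 and 1 with the trend removed. The other list counts stayed within 1.5 times, and no fold change of the 8 tested genes turned its direction. No paired analysis was possible because the deposited table has no values per library. For the same reason leaving out a replicate, edgeR, TMM scaling and another filter on low counts were not run. For STEAP3 and SLC40A1, depth allows only the statement that 0 reads were counted, with 3 expected reads taken as the limit.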

Other observations

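Outside the iron and heme genes, 13 of 182 tested genes with a fully paired hairpin were called, 9 higher and 4 lower. That is 7.14%, beside 5.90% of all tested genes, and nothing particular is read from them. Those named here are a selection made after their values were seen. Others, such as FICD at 1.21 and KIAA1549 at -0.51 on the log2 scale, are not discussed. NFE2L1, a transcription factor related to NRF2, had a log2 fold change of 0.57 (adjusted p = 0.00214) in the authors' deposited table. The zinc transporter SLC39A9 had 0.49 there (adjusted p = 0.0445). From the same authors' deposited table, WIPI1, which acts in autophagosome formation, stood at 0.78 (adjusted p = 0.00825) and the translation inhibitor PDCD4 at 0.70 (adjusted p = 0.00125). The authors' deposited table puts SAPCD2, a regulator of spindle orientation, at -1.46 (adjusted p = 1.85e-11). None of these named genes has its match in the 5′ UTR, and whether it lies in the 3′ UTR or the coding part is not reported here. These matches rest on letters alone, and binding of an iron regulatory protein to them was not measured.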
